A study of Oryza sativa Indica Group with 6 samples.

Results

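The comparison described here is the change of the genotype ratio between the submerged times, that is, log2 FR13A over IR24 after 24 h under water minus log2 FR13A over IR24 after 15 min. Its arrays were chosen by the sample labels: 2 arrays of 24 h and 2 arrays of 15 min, which are 4 of the 6 arrays of the study. FR13A is an indica rice that tolerates flooding and IR24 is a rice that does not. Leaves of both were sampled from growth chamber plants that had been put under water inside see-through bags on day 14 after sowing, so the 24 h leaves were taken on day 15 and the 15 min leaves on day 14. The remaining 2 arrays hold untreated (constitutive) leaves of day 14, and they entered the fit only to share its estimate of the spread. No array compared here holds leaves kept in air until day 15, so hours under water and a day of age cannot be told apart. The labels do not say whether replicates came from separate plants, so the p-values measure only the spread between these arrays, which may be technical.

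Flooding cuts the supply of oxygen and carbon dioxide to a leaf and traps ethylene inside it. Rice leaves under water are known to turn from respiration to glycolysis with ethanol fermentation, to spend starch and sugar, and, in genotypes that do not tolerate flooding, to stretch and to lose chlorophyll. FR13A is the landrace from which flooding tolerance has been bred into other rices, and its tolerance is known as a response that saves carbohydrate by restraining growth.

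Both genotypes shared every array in different dyes, so the ratio of a probe is measured within a spot, and replicate 2 carried the dyes the other way round from replicate 1 at both times. A change of the ratio says that the genotypes moved apart or together, and a separate fit on the 2 channels says which of them moved. In bulk leaf RNA, fewer cells of a type and less RNA per cell cannot be told apart. Over the 6 arrays 81.8% to 95.3% of gene probes were well above background in Cy5 and 85.4% to 92.2% in Cy3. The 4 submerged arrays held both of the Cy5 extremes, with the highest on replicate 2 of 24 h and the lowest on replicate 1 of 15 min. The lowest share in each dye was that of FR13A at 15 min. It was 81.8% on replicate 1 and 85.4% on replicate 2, against 89.8% and 89.3% in IR24. At 24 h FR13A had 90% and 92.2%, against 91.4% and 95.3% in IR24. What this difference does to the ratio changes was not tested. A sequence difference between the genotypes under a probe can also alter its ratio. Probe names follow the array files, and a probe described by a gene of another species is written here as "like" that gene.

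Few genes changed their ratio beyond the spread between arrays. Of 20289 probes tested, 17 (0.0838%) passed at an adjusted p under 0.05 in the limma fit, 6 (0.0296%) with a change towards FR13A and 11 (0.0542%) with a change towards IR24. Among them, a phosphoglycerate kinase-like gene of glycolysis and an At3g11930-like gene opened a gap in favour of FR13A, while the resistance gene homologue PibH8 and an anthocyanidin reductase-like gene moved most towards IR24. In all 17 the 2 arrays of 24 h did not overlap with the 2 arrays of 15 min. A lack of overlap was also common among probes without a call. Of 19167 probes with a ratio on each of these arrays, 2882 (15%) had 24 h ratios wholly above the 15 min ratios. In another 2963 (15.5%) the 24 h ratios lay wholly below. Calls ask for a large change and a small spread, so the lack of overlap in the 17 is no separate support. Over all tested probes the median change was 0.00 and the standard deviation 0.29 on the log2 scale.

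The replicates give a value each, because same-numbered arrays of the 2 times shared a dye orientation and a scan day. For the 6 probes that changed towards FR13A, the same-replicate differences had sizes of 1.37 to 3.40, and the replicates differed by at most 0.32. For the 11 that changed towards IR24 the sizes were 1.25 to 3.66, with at most 0.41 between replicates. A call asks for a large change and a small spread on these same arrays, so this closeness is no separate support. Over 19167 probes with both differences, 57.5% had the same sign in both replicates. No probe passed when the scan day entered the limma fit as a block (2018 had an unadjusted p under 0.05, and the smallest adjusted p was 0.145), and none passed with only the 4 submerged arrays in the limma fit (1124 had an unadjusted p under 0.05, and the smallest adjusted p was 0.093). Leaving out replicate 2 of 15 min left 3 called, and leaving out any other of the 6 arrays left 0, with 1020 to 1448 probes at an unadjusted p under 0.05.

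**Figure D1:**
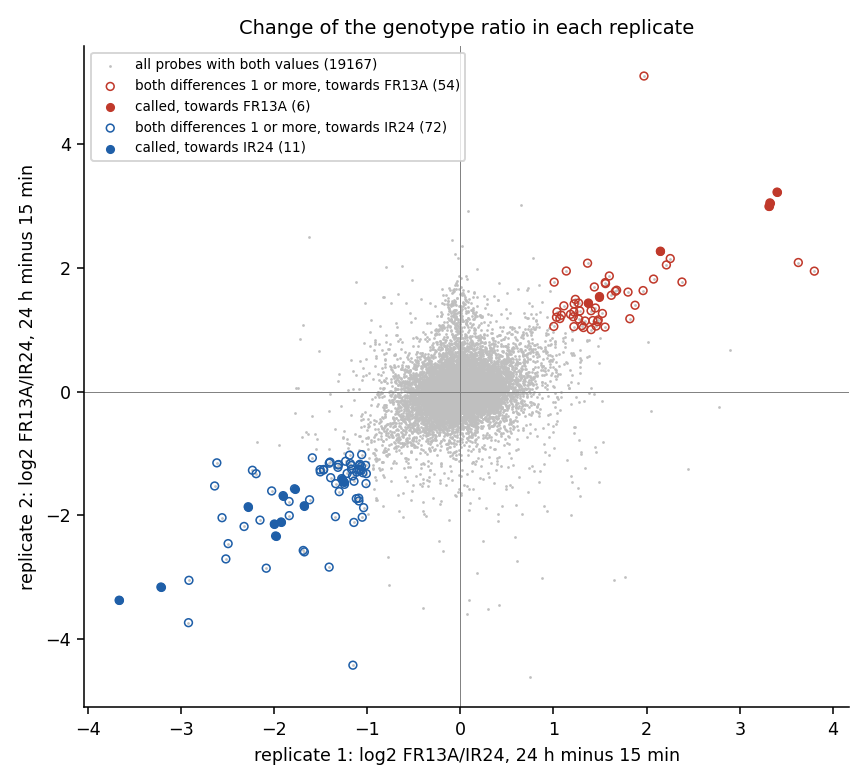
Change of log2 FR13A over IR24, 24 h minus 15 min, in replicate 1 (x axis) and replicate 2 (y axis), with 1 point per probe. The 17 called probes are filled, the 126 probes with both differences of 1 or more are circled, and the cloud of all 19167 probes lies around 0.

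The largest called change towards FR13A was that of AK070705, described as a wheat cytosolic phosphoglycerate kinase, an enzyme of glycolysis that makes ATP. Its log2 ratio was 3.37 and 3.42 on the 24 h arrays, against -0.03 and 0.19 on the 15 min arrays. The genotypes were thus level at 15 min and stood clearly apart on both arrays of 24 h. The ratio changed by 3.31 (SE 0.15, adjusted p = 0.00976), a 9.95-fold shift. The FR13A channel read 12.57 and 12.003 at 24 h, against 8.75 and 8.92 at 15 min, on the scale of log2 intensity. The IR24 channel read 9.20 and 8.59 at 24 h, against 8.79 and 8.73 at 15 min, and its arrays overlapped between the times. FR13A rose by 3.45 (adjusted p = 2.32e-05), while the IR24 change of 0.14 did not pass (adjusted p = 0.74).

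AK107152, like the Arabidopsis gene At3g11930 and listed without a role in the files, rose in both genotypes and further in FR13A. Its ratio was 3.27 and 3.49 at 24 h, against -0.04 and 0.49 at 15 min, a change of 3.16 (SE 0.21, adjusted p = 0.0273). The FR13A channel rose by 5.36 (41.1-fold, adjusted p = 1.43e-05) and the IR24 channel by 2.21 (4.61-fold, adjusted p = 0.000946). AK110639, an unknown expressed protein, moved in opposite directions in the genotypes. Its ratio was 3.03 and 2.97 at 24 h, against -0.29 and -0.08 at 15 min, and changed by 3.19 (SE 0.13, adjusted p = 0.00976). FR13A rose by 2.12 (adjusted p = 0.00159) and IR24 fell by 1.07 (adjusted p = 0.0412).

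AK107013, like the unknown Arabidopsis protein At4g23790, closed a gap instead of opening one. Its ratio was 0.12 and 0.30 at 24 h, against -1.38 and -1.24 at 15 min, so IR24 stood above FR13A at 15 min and not at 24 h. In constitutive leaves the ratio was -1.44 and -1.47. The change was 1.52 (SE 0.13, adjusted p = 0.0454), and it lay in IR24, which fell by 1.85 (adjusted p = 0.000228), against a change of -0.33 in FR13A (adjusted p = 0.254). The other 2 called probes in this direction are unknown expressed proteins with changes of 1.40 and 2.21.

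In the other direction the largest called change was that of PibH8 (AK065693), a homologue of the rice blast resistance gene Pib. Its ratio was -5.31 and -4.86 at 24 h, against -1.64 and -1.49 at 15 min, a change of -3.52 (SE 0.29, adjusted p = 0.0454). The change was -1.89 and not called with the scanner software's processed signals (adjusted p = 0.163), and -1.88 with the deposited log ratios (adjusted p = 0.185). IR24 read 11.52 on both arrays of 24 h, against 7.82 and 8.08 at 15 min, and FR13A read 6.21 and 6.66 at 24 h, against 6.18 and 6.59 at 15 min. IR24 rose 11.9-fold (3.57, adjusted p = 6.45e-05), and the FR13A change of 0.05 did not pass (adjusted p = 0.914). The FR13A channel was well above background on both arrays of 24 h and on neither array of 15 min, so at 15 min FR13A has only a bound, with IR24 at least 2.82-fold higher. AK067087, described as a gene of resistance to the rice blast fungus, followed the same pattern. Its ratio was -2.54 and -2.49 at 24 h, against -0.56 and -0.15 at 15 min (change -2.16, SE 0.16, adjusted p = 0.0384), with IR24 up by 1.97 (adjusted p = 0.000489) and FR13A at -0.18 (adjusted p = 0.61).

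The anthocyanidin reductase-like AK072654, named after an enzyme that turns anthocyanidins into the building units of tannins, had the genotypes in opposite orders at the 2 times. FR13A was lower than IR24 at 24 h, with ratios of -2.22 and -1.76, and higher at 15 min, with 0.996 and 1.40. The change was -3.19 (SE 0.21, adjusted p = 0.0273). FR13A read 7.28 and 7.75 at 24 h, against 11.16 and 11.08 at 15 min, and fell by 3.61 (12.2-fold, adjusted p = 1.96e-05), while the IR24 change of -0.42 did not pass (adjusted p = 0.252). AK099094, like an Arabidopsis amino acid transporter, likewise changed in FR13A. Its ratio was -1.47 and -1.28 at 24 h, against 0.31 and 0.29 at 15 min (change -1.68, SE 0.12, adjusted p = 0.0384), and FR13A fell by 1.31 (adjusted p = 0.00926), against 0.36 in IR24 (adjusted p = 0.424).

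The other probes called towards IR24 are AK110646, an unknown expressed protein, and probes like Arabidopsis sequences. AK068929, like an F-box protein, a kind of protein that marks others for breakdown, had ratios of -2.74 and -2.48 at 24 h, against -0.84 and -0.80 at 15 min (change -1.79, adjusted p = 0.0454). IR24 was above FR13A at both times and rose by 1.82. AK073328, like an unnamed Arabidopsis clone, went opposite ways, with changes of -0.73 in FR13A (adjusted p = 0.0465) and 1.29 in IR24 (adjusted p = 0.00352), and a ratio change of -2.02 (adjusted p = 0.0273). In the remaining probes the ratio changed by -2.07 for AK068675 (At1g80110-like), -2.07 for AK060656 (like another unnamed clone), -1.76 for AK065474 (At1g21680-like), -1.36 for AK067278 (At5g18980-like) and -1.34 for AK110646. In each of these 5 the IR24 channel rose, by 1.24 to 2.26, and the FR13A change did not pass. AK068675 (-3.12), AK060656 (-3.01), AK067278 (-1.09), AK110646 (-1.22) and AK068929 (-1.27) were not called with the processed signals (adjusted p = 0.0534, 0.116, 0.279, 0.174 and 0.415) or with the deposited log ratios. The calls of AK065474 and AK099094 were lost with the deposited log ratios (adjusted p = 0.0554 and 0.0564). AK068675 was not well above background in FR13A at either time, so IR24 was at least 5.82-fold higher at 24 h and at least 1.30-fold higher at 15 min, and AK060656 was not well above background in FR13A at 15 min.

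**Figure D2:**
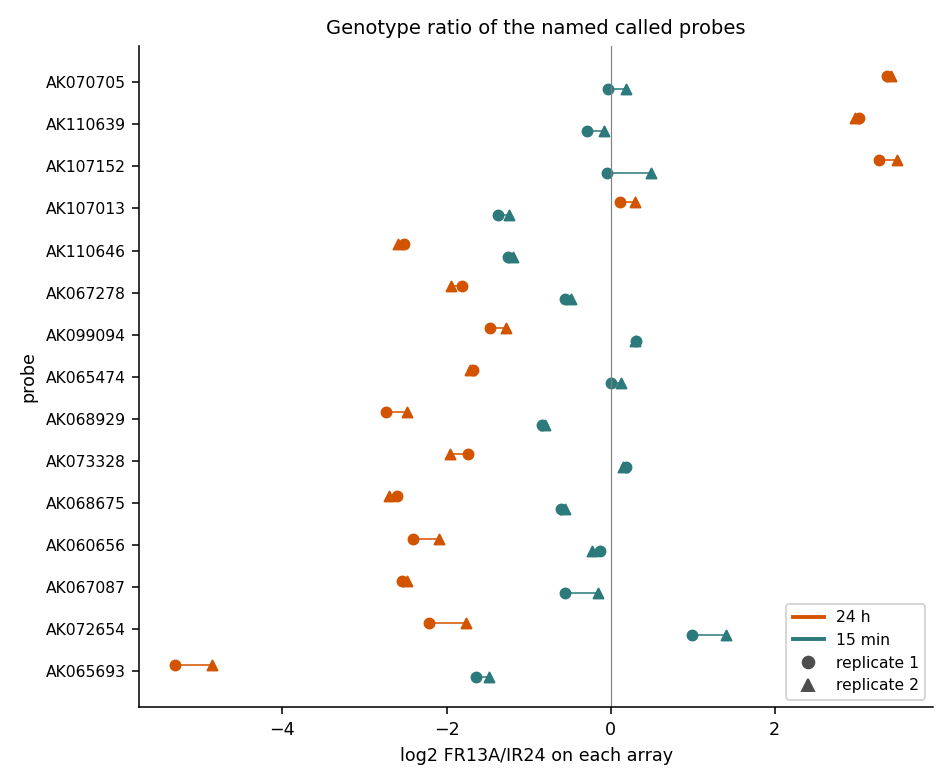
Log2 FR13A over IR24 on each array (x axis) for the 15 named called probes (rows), with 24 h drawn above 15 min and replicates 1 and 2 as circles and triangles. In each row the 24 h pair lies wholly to the right (4 probes) or to the left (11 probes) of the 15 min pair, and in some of them, AK072654 and AK110639 among these, the pairs lie on opposite sides of 0.

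The channels show which genotype moved. Between the times 2181 of 18907 probes (11.5%) changed in FR13A, 940 (4.97%) higher and 1241 (6.56%) lower at 24 h, and 1917 (10.1%) changed in IR24, 799 (4.23%) higher and 1118 (5.91%) lower. Across probes the FR13A and IR24 changes correlated at 0.873, a description over channels that share spots, arrays and their scaling. Of the 6 probes called towards FR13A, 2 rose in FR13A alone, 1 fell in IR24 alone, 2 moved the same way in both and 1 moved oppositely. Of the 11 called towards IR24, 8 rose in IR24 alone, 2 fell in FR13A alone and 1 moved oppositely. Alone means here that the other channel's change did not pass, not that it was 0. The ratio change is the FR13A change minus the IR24 change, so these directions largely follow from the calls and are no separate support. With quantile scaling 1 of the 2 that rose in FR13A alone, an unknown protein, also passed in IR24 (0.72, limma adjusted p = 0.0418). Lower channel counts came with some arrays left out: 869 in FR13A and 667 in IR24 without replicate 1 of 24 h, 801 in FR13A and 673 in IR24 without replicate 2 of 24 h, and 1270 in FR13A without replicate 2 of 15 min. They also rest on the scaling between arrays: with none, the median change of all probes was 0.66 in FR13A and 0.65 in IR24, and 5 FR13A changes named above (AK073328, AK107013, AK067087, AK110646 and AK068675) and the IR24 change of AK072654 had the opposite sign. Of these only the FR13A change of AK073328 was a call. With no scaling, some channel changes given above as not passing did pass in the limma fit. They were IR24 in AK070705 (0.91, adjusted p = 0.0161) and AK099094 (1.14, adjusted p = 0.0157). In FR13A they were AK065474 (1.30, adjusted p = 0.00729), AK067278 (0.75, adjusted p = 0.0466) and AK110646 (0.68, adjusted p = 0.0471).

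**Figure D3:**
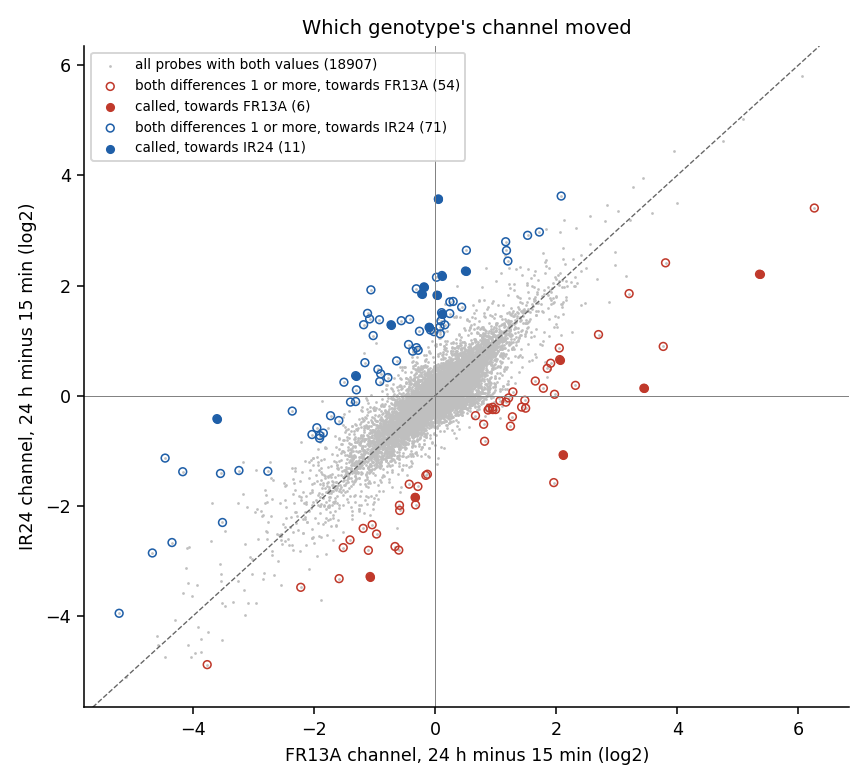
Change of the FR13A channel (x axis) against the change of the IR24 channel (y axis), 24 h minus 15 min, log2, with 1 point per probe and equal change on the dashed line. Called probes are filled. Of the 11 called towards IR24 (blue), 8 sit above 0 on the y axis with little change on the x axis.

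A wider group of 126 of 19167 probes (0.657%) had a difference of 1 or more in both replicates and in 1 direction, 54 (0.282%) towards FR13A and 72 (0.376%) towards IR24, and it holds all 17 called probes. In 9 of the 126 the times nevertheless overlapped. In the 54 towards FR13A, 25 probes rose in FR13A alone and 11 fell in IR24 alone, and 31 went apart by 1 or more only at 24 h, against 12 only at 15 min. In the 72 towards IR24, 26 rose in IR24 alone and 13 fell in FR13A alone, 29 went apart only at 24 h and 18 only at 15 min, and 6 turned over. The rule of the wider group fixes the sign of the ratio change, which is the FR13A change minus the IR24 change. The directions of the single channels largely follow from it and are no separate support. The channel p-values of these probes rest on the same spots as the rule. The genes described next come mostly from this group. None of their ratio changes passed unless stated, and their channel calls are given for many of them but not for all.

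The cytosolic form of PPDK (AK065739), pyruvate orthophosphate dikinase, which makes phosphoenolpyruvate out of pyruvate and the reverse, had ratios of 3.78 and 3.41 at 24 h, against 0.15 and 1.32 at 15 min. The groups did not overlap, but the 15 min arrays lay far apart, and the change of 2.86 (SE 0.42) did not pass (adjusted p = 0.163). Both channels rose, FR13A by 6.27 (76.9-fold, adjusted p = 2.32e-05) and IR24 by 3.41 (10.6-fold, adjusted p = 0.000532). A vacuolar H+-pyrophosphatase (AK102146), which pumps protons into the vacuole with pyrophosphate in place of ATP, had ratios of 3.80 and 3.82 at 24 h, against 0.00 and 1.87 at 15 min (change 2.88, SE 0.61, adjusted p = 0.315). FR13A rose by 3.77 (adjusted p = 0.00143), and the IR24 change of 0.89 did not pass (adjusted p = 0.315).

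Other enzymes of sugar breakdown went in both directions. The sucrose synthase 3-like AK099406, an enzyme that splits sucrose, had ratios of -0.73 and -1.40 at 24 h, against 0.31 and 0.48 at 15 min (change -1.46, adjusted p = 0.227), and rose by 1.18 in FR13A (adjusted p = 0.0258) and 2.64 in IR24 (adjusted p = 0.000445). Aldolase C-1 (AK073770), an enzyme of glycolysis picked after its values were seen, changed by 1.29 (adjusted p = 0.16), with FR13A up by 1.17 (adjusted p = 0.00327). The glycolytic glyceraldehyde-3-phosphate dehydrogenase AK099086 changed by 0.91 (adjusted p = 0.403). Of 63 glycolysis and sucrose probes only the phosphoglycerate kinase-like one was called, against 0.0838% of all probes. Their median ratio change was 0.04 against 0.00 over all probes. In the channels 4 rose and 11 fell of 59 in FR13A, and 3 rose and 11 fell in IR24. That is 25.4% called in FR13A and 23.7% in IR24, against 11.5% and 10.1% of all probes, of which 4.97% rose and 6.56% fell in FR13A, and 4.23% rose and 5.91% fell in IR24.

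No gene of fermentation, which disposes of pyruvate when oxygen is short, passed for the ratio. Alcohol dehydrogenase ADH1, the last step to ethanol, changed by 0.14 on AK069330 and -0.18 on AK073964, and the sign of each depends on the array left out. ADH2 (AK102799) changed by 0.22, and pyruvate decarboxylase, the step before, by 0.52 for PDC2 (AK101594) and -0.69 for PDC1 (AK100678), whose IR24 channel was not well above background at 24 h. None of these 5 probes passed in the ratio or in either channel. An Arabidopsis alcohol dehydrogenase-like probe (AK067720) rose in both, by 0.90 in FR13A (adjusted p = 0.00631) and by 1.47 in IR24 (adjusted p = 0.000471), with a ratio change of -0.56 (adjusted p = 0.545), or -0.12 with the processed signals. Of 55 fermentation probes 0 were called in the ratio, against 0.0838% of all probes, and at that share 0 says little. Their median change was 0.07. In the channels 4 rose and 4 fell of 49 in FR13A, and 3 rose and 4 fell in IR24 (16.3% and 14.3% called, against 11.5% and 10.1% of all probes). Alternative oxidase, which lets electrons bypass part of the respiratory chain, fell in both genotypes: AOX1A (AK064040) changed by -1.32 in FR13A and -0.76 in IR24 (adjusted p = 0.00252 and 0.0362) and AOX1b (AK107376) by -1.37 and -0.95 (adjusted p = 0.00211 and 0.0134), with ratio changes of -0.56 and -0.42 that did not pass. Hemoglobin HB1 (AK064054), which scavenges nitric oxide, changed by -0.33 in the ratio and passed in neither channel.

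**Figure D4:**
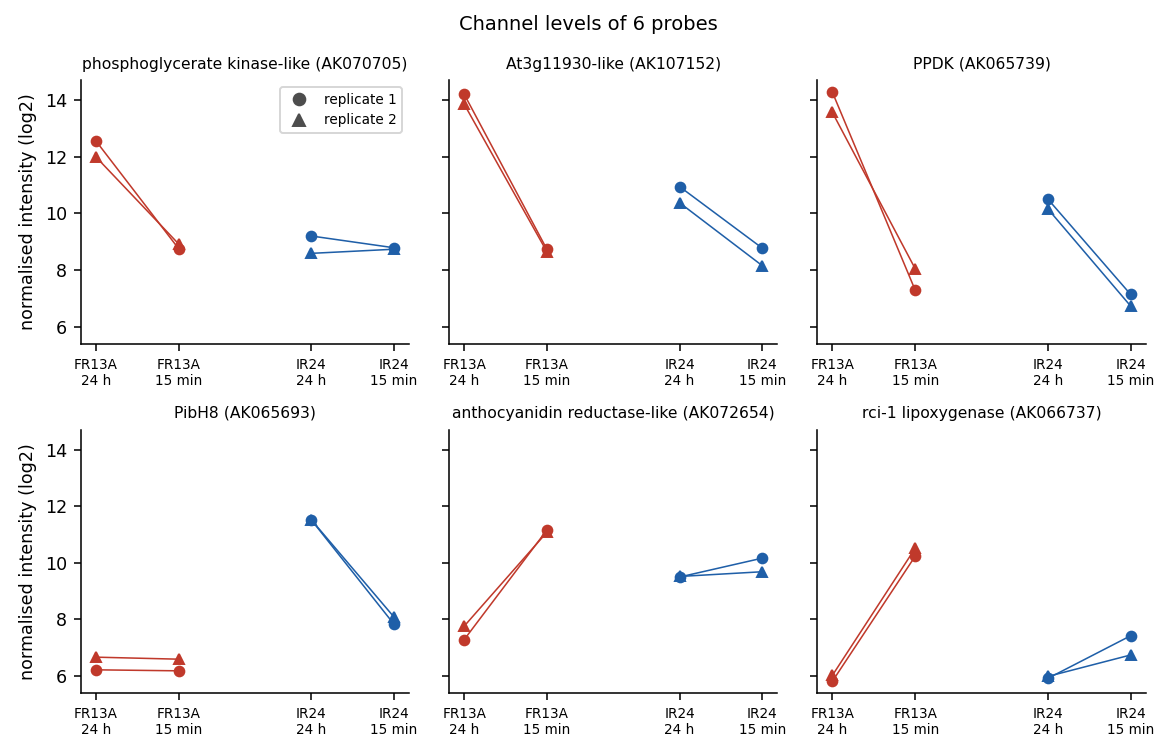
Log2 normalised intensity of 6 probes in the FR13A and the IR24 channel (red and blue), with 24 h left of 15 min and each line joining arrays of 1 replicate. The FR13A lines carry the change in the phosphoglycerate kinase-like, anthocyanidin reductase-like and rci-1 probes, the IR24 lines carry it in PibH8, and both move in PPDK and the At3g11930-like probe.

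Some defence genes had FR13A above IR24 on the 15 min arrays and lower ratios on the 24 h arrays. The lipoxygenase gene rci-1 (AK066737), whose enzyme oxidises fatty acids on the way to jasmonate-type signals, had ratios of -0.10 and 0.04 at 24 h, against 2.82 and 3.78 at 15 min. Its change of -3.33 (SE 0.40) did not pass here (adjusted p = 0.101) but did with the scanner software's own processed signals (-4.29, adjusted p = 0.0191). FR13A was not well above background at 24 h and was at least 22.03-fold lower there than at 15 min (adjusted p = 5.63e-05). PBZ1 (AK071613), a pathogenesis-related protein induced by the plant activator probenazole, had ratios of 0.01 and -0.92 at 24 h, against 1.17 and 3.51 at 15 min, with arrays far apart within each time (change -2.79, SE 0.80, adjusted p = 0.565). It fell by 4.17 in FR13A (adjusted p = 0.00374), against -1.38 in IR24 (adjusted p = 0.245). A wheat PR1-like probe (AK107926) and a terpene synthase-like probe (AK110925), both picked after their values were seen, changed in FR13A by -2.36 (adjusted p = 0.00521) and -3.24 (adjusted p = 0.000556), with ratio changes of -2.08 and -1.88. The change of -2.08 was -3.38 with the processed signals and passed there (adjusted p = 0.0478). AK110925 also changed in IR24, by -1.36 (adjusted p = 0.0393).

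Other defence genes rose in both genotypes or in 1. Rice PR1 (AK060057), a marker of salicylic acid responses, had ratios of -1.35 and -1.13 at 24 h, against -0.03 and 0.06 at 15 min (change -1.25, SE 0.14, adjusted p = 0.0851). With the processed signals its change was -2.28 and passed (adjusted p = 0.047). Neither channel was well above background at 15 min, so FR13A was at least 2.80-fold and IR24 at least 7.75-fold higher at 24 h (adjusted p = 7.79e-05 and 9.65e-06). The germin-like protein GER2 (AK059812) went the other way, with ratios of 1.42 and 1.20 at 24 h, against -0.11 and -0.06 at 15 min (change 1.40, adjusted p = 0.0716), and rose by 3.81 in FR13A and 2.41 in IR24. The class III chitinase homologue OsChib3H-c (AK103295), picked after its values were seen, belongs to enzymes that cut fungal cell walls. Its ratio change of 1.59 was 0.82 with the processed signals, and neither passed. It rose by 2.70 in FR13A (adjusted p = 0.00289), and its IR24 change of 1.11 did not pass (adjusted p = 0.13). A salicylic acid methyltransferase-like probe (AK108651) changed by -0.996 (adjusted p = 0.101), or by -2.15 with the processed signals (adjusted p = 0.023) and with the deposited log ratios (adjusted p = 0.0303), where it passed, with IR24 up by 0.62 (adjusted p = 0.0223). Of 177 defence probes 0 were called in the ratio, against 0.0838% of all probes, and the median change was -0.03. Of 165 with both differences, 2 were in the wider group towards FR13A and 4 towards IR24, against 0.282% and 0.376% of all such probes. In the channels 11 rose and 23 fell of 164 in FR13A, and 14 rose and 17 fell in IR24 (20.7% and 18.9% called, against 11.5% and 10.1% of all probes).

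The NBS-LRR list is named for receptors that detect pathogens from inside the cell, and it also takes in other resistance genes. Single members rose in 1 genotype. RPR1 (AK111665), a rice NBS-LRR gene known to respond to probenazole, had ratios of 2.71 and 3.11 at 24 h, against 0.63 and 1.29 at 15 min, and rose by 1.97 in FR13A (adjusted p = 0.000719), against 0.02 in IR24 (adjusted p = 0.961). The YR5-described NBS-LRR-like probe AK067819 had ratios of 1.85 and 1.68 at 24 h, against 0.29 and -0.07 at 15 min, and rose by 1.79 in FR13A (adjusted p = 0.00143). Their ratio changes of 1.95 and 1.65 had adjusted p = 0.146 and 0.0736. XA1 (AK105096), a bacterial blight resistance gene picked after its values were seen, changed by 1.03 (adjusted p = 0.0851). The Ve1-like AK070173, described as a disease resistance protein and not as an NBS-LRR, changed by 1.57 (adjusted p = 0.0851), or 2.38 with the processed signals (adjusted p = 0.0944). Its IR24 channel was not well above background on either array of 15 min. Against these stand PibH8, the called member of the list, and the wall-associated kinase 2-like AK111809, a receptor kinase of the cell wall. XA1 and the called AK067087, described as a blast resistance gene, are not counted in this list. AK067087 is not in the defence list either. AK111809 had ratios of -3.07 and -3.59 at 24 h, against -1.38 and -1.02 at 15 min (change -2.13, adjusted p = 0.0736), and it rose by 2.15 in IR24 (adjusted p = 0.000402), against 0.02 in FR13A (adjusted p = 0.958). Over 166 probes of the NBS-LRR list the median ratio change was 0.00, and of 153 in the channels 12 rose and 3 fell in FR13A, and 7 rose and 4 fell in IR24 (9.8% and 7.2% called, against 11.5% and 10.1% of all probes).

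Of 13 probes like the Arabidopsis receptor kinase RLK4, 2 were in the wider group towards FR13A and 1 towards IR24, and the other 10 had changes of at most 0.64 in size. Over all probes with both differences the shares were 0.282% and 0.376%. AK111594 had ratios of -0.14 and -0.05 at 24 h, against -2.39 and -2.20 at 15 min, and changed in IR24 by -2.80 (adjusted p = 0.00016), with FR13A not well above background at either time. AK109699 had ratios of 1.32 and 1.55 at 24 h, against 0.21 and 0.16 at 15 min. Neither channel of AK109699 was well above background at 15 min, so its 15 min ratios do not show that the genotypes were level. In it FR13A was at least 1.95-fold higher at 24 h (adjusted p = 0.00375). The ratio changes of AK111594 and AK109699 were 2.20 (adjusted p = 0.101) and 1.25 (adjusted p = 0.0789). With the processed signals AK111594 changed by 4.69 (adjusted p = 0.074) and AK109699 by 2.73, which passed (adjusted p = 0.0405, and 0.0462 with the deposited log ratios). AK112096, added after its values were seen, had ratios of -0.87 and -1.16 at 24 h, against 0.27 and 0.95 at 15 min (change -1.63, adjusted p = 0.17). It rose in both genotypes, by 1.17 in FR13A (adjusted p = 0.0143) and 2.79 in IR24 (adjusted p = 0.000152).

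Cytochrome P450 enzymes add oxygen to hormones, toxins and defence compounds. Of the 11 probes described as the rice monooxygenase PM-II, 3 were in the wider group, against 0.657% of all probes with both differences. AK067905 had ratios of -2.12 and -2.16 at 24 h, against -1.10 and -0.67 at 15 min, AK099637 had -1.62 and -1.85 against -0.57 and -0.54, and AK102040 had -0.49 and -0.65 against 0.57 and 0.37. All 3 are in the group towards IR24, whose rule asks for lower 24 h ratios in both replicates, so their shared direction is no separate support. The other PM-II probes were not in the wider group. The 3 share a description and may measure related transcripts. They rose in IR24, by 1.49, 0.87 and 1.12 (adjusted p = 0.00134, 0.00627 and 0.0016), and did not pass in FR13A. Their ratio changes of -1.25, -1.18 and -1.04 did not pass (adjusted p = 0.154, 0.0851 and 0.163), nor did the -2.06 of AK102040 with the processed signals (adjusted p = 0.375). An At1g64950-like P450 (AK106424) had ratios of 0.54 and 0.62 at 24 h, against 2.21 and 3.21 at 15 min. It fell by 3.55 in FR13A (adjusted p = 0.000148) and changed by -1.41 in IR24, which also passed. Its ratio change of -2.13 was -0.48 with the processed signals. Of 112 P450 probes 0 were called in the ratio, against 0.0838% of all probes. Of 106 with both differences, 1 was in the wider group towards FR13A and 4 towards IR24, against 0.282% and 0.376% of all such probes. In the channels 5 rose and 15 fell of 106 in FR13A, and 6 rose and 15 fell in IR24 (18.9% and 19.8% called, against 11.5% and 10.1% of all probes).

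The monooxygenase 2-like AK106420 moved in opposite directions. Its ratio was -1.18 and -1.07 at 24 h, against 0.91 and 1.79 at 15 min (change -2.47, SE 0.29, adjusted p = 0.0989), and FR13A fell by 1.18 (adjusted p = 0.03) while IR24 rose by 1.29 (adjusted p = 0.0225). The maize anionic peroxidase-like AK067667, of a family that works in cell walls, had ratios of 1.33 and 1.53 at 24 h, against -0.88 and -0.52 at 15 min, and rose in FR13A by 2.32 (adjusted p = 0.00533). Its ratio change was 2.13 (adjusted p = 0.163). The glutathione transferase GST 20-like AK064650 changed by -1.14 (adjusted p = 0.0736) and the WRKY4-like AK102093, of a family of stress transcription factors, by -1.17 (adjusted p = 0.107), with FR13A changes of -1.59 and -1.85 (adjusted p = 0.000321 and 0.00051). In the phenylpropanoid pathway, which makes lignin and flavonoids, a cinnamyl alcohol dehydrogenase-like probe (AK067085) rose in FR13A by 1.66 (adjusted p = 0.00278), and a phenylalanine ammonia-lyase-like probe (AK068993) changed in FR13A by -1.48 (adjusted p = 0.00159).

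Hormone genes had 0 called members for the ratio in the ethylene (42 probes), gibberellin (47), abscisic acid and dehydration (44), auxin (80) and jasmonate and lipoxygenase (29) lists. Over all probes 0.0838% were called, so 0 says little about lists of this size. The median ratio changes of these lists ran between -0.045 and 0.034. ACO1 (AK065039), an ethylene-making oxidase, had ratios of -1.15 and -1.47 at 24 h, against -1.21 and -1.41 at 15 min, and a change of 0.01 whose sign depends on the array left out. An Arabidopsis ACC oxidase-like probe (AK102472) rose by 2.08 in FR13A (adjusted p = 0.00051) and 1.09 in IR24 (adjusted p = 0.0132). OsGA2ox3 (AK063973), which inactivates gibberellin, the hormone of shoot elongation, rose by 1.21 in FR13A and 2.03 in IR24 (adjusted p = 0.00468 and 0.000323), with a ratio change of -0.81 (adjusted p = 0.338). Expansin Os-EXP2 (AK070463), a wall-loosening protein, rose in IR24 by 1.24 (adjusted p = 0.00581), against 0.48 in FR13A (adjusted p = 0.187). Both probes like the AP2 domain gene AP2DCP (AK060090 and AK065344) rose in IR24, by 1.39 and 0.91 (adjusted p = 0.00515 and 0.0114), and they may measure 1 transcript.

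Both probes like the wheat cold acclimation protein WCOR518 (AK062295 and AK062781) fell in both genotypes. The FR13A changes were -3.53 and -3.15, the IR24 changes -4.43 and -3.99, and the ratio changes of 0.91 and 0.84 did not pass (adjusted p = 0.375 and 0.58). The IR24 spot of AK062295 was saturated on 1 of the 4 submerged arrays. The NAC-domain TERN-like AK071274 changed by -1.95 in FR13A (adjusted p = 0.000612) and -2.91 in IR24 (adjusted p = 7.04e-05). In the NAC list of transcription factors 1 rose and 8 fell of 36 in FR13A, and 2 rose and 10 fell in IR24 (25.0% and 33.3% called, against 11.5% and 10.1% of all probes). A pair of probes for small heat shock proteins, which keep damaged proteins from clumping, fell in both genotypes. The maize 18 kDa heat shock protein-like AK071240 had ratios of 0.31 and 0.02 at 24 h, against 1.62 and 1.25 at 15 min, and changed by -5.22 in FR13A (adjusted p = 1.6e-05) and -3.95 in IR24 (adjusted p = 5.34e-05). The low molecular weight heat shock protein AK069547 had -0.44 and -0.07 at 24 h, against 0.95 and 1.32 at 15 min, and changed by -2.76 in FR13A (adjusted p = 0.000152) and -1.37 in IR24 (adjusted p = 0.00593). Their ratio changes of -1.27 and -1.39 did not pass (adjusted p = 0.245 and 0.163). Of 97 heat shock probes 0 were called in the ratio, against 0.0838% of all probes, and the median change was -0.05. Of 92 in the channels 2 rose and 17 fell in FR13A, and 1 rose and 15 fell in IR24 (20.7% and 17.4% called, against 11.5% and 10.1% of all probes).

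Hd3a (AK072979), the rice florigen made in leaves, and a pair of malonyl-CoA:ACP transacylase-like probes of fatty acid synthesis (AK060653 and AK101597) were picked after their values were seen. Of 2 Hd3a probes kept, only AK072979 was in the wider group. Its ratios were -1.66 and -1.27 at 24 h, against -0.15 and 0.00 at 15 min (change -1.38, adjusted p = 0.163). IR24 rose by 2.91 (adjusted p = 0.00056), and FR13A, not well above background at 15 min, was at least 2.79-fold higher at 24 h (adjusted p = 0.016). The transacylase-like pair shared a ratio change of -1.17 and rose in IR24 by 1.61 and 1.25 (adjusted p = 0.000776 and 0.00322), but not past the threshold in FR13A. Ramy1 (AK069098) had ratios of -0.03 and -0.03 at 24 h, against -1.99 and -1.66 at 15 min (change 1.80, adjusted p = 0.107). Saturated spots in both channels limit that probe. AK062438, described by a human translation factor sequence (EIF4GI), had the largest mean change of all uncalled described probes towards FR13A, and its arrays did not repeat: the ratio was -0.58 and -0.37 at 24 h, against -2.56 and -5.48 at 15 min (change 3.54, SE 1.01, adjusted p = 0.553). Its IR24 spot was saturated on 1 of these 4 arrays. A PMZ zinc finger-like probe (AK065210) had ratios of -0.05 and 0.35 at 24 h, against -1.85 and -1.27 at 15 min, and fell by 1.10 in FR13A (adjusted p = 0.0375) and by 2.81 in IR24 (adjusted p = 0.000393).

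Leaf genes had a median ratio change close to that of all probes. The photosynthesis list, which holds the leaf markers, had a median of 0.02 over 71 probes, against 0.00. Of the 71, 0 were called, against 0.0838% of all probes, and at that share 0 says little. In the channels 1 rose and 5 fell of 66 in FR13A, and 0 rose and 4 fell in IR24 (9.1% and 6.1% called, against 11.5% and 10.1% of all probes). The list member PSII-S (AK071638), a photosystem II protein that helps leaves shed excess light, had a ratio change of 1.29 (adjusted p = 0.445). A barley protochlorophyllide oxidoreductase-like probe (AK065236), of chlorophyll synthesis, changed in IR24 by -2.16 (adjusted p = 0.0058), against -1.07 in FR13A (adjusted p = 0.0993), with its IR24 spot saturated on 1 of the 4 submerged arrays. Markers of other tissues had medians as small: the median ratio change was 0.01 over 11 seed storage probes and 0.02 over 23 root or pollen probes, with 0 called in either. An unadjusted p under 0.05 in the limma fit was held by 1 of the 11 and 3 of the 23, against 5.71% of all tested probes. The 3 changed towards FR13A, by 1.51 (AK111098, pollen allergen-like, with a 24 h spot missing), 0.87 (AK065469, anther protein-like) and 0.66 (AK062911, RCc2). AK111098 was not well above background in either channel at 15 min, and AK065469 was not in IR24 at either time.

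**Figure D5:**
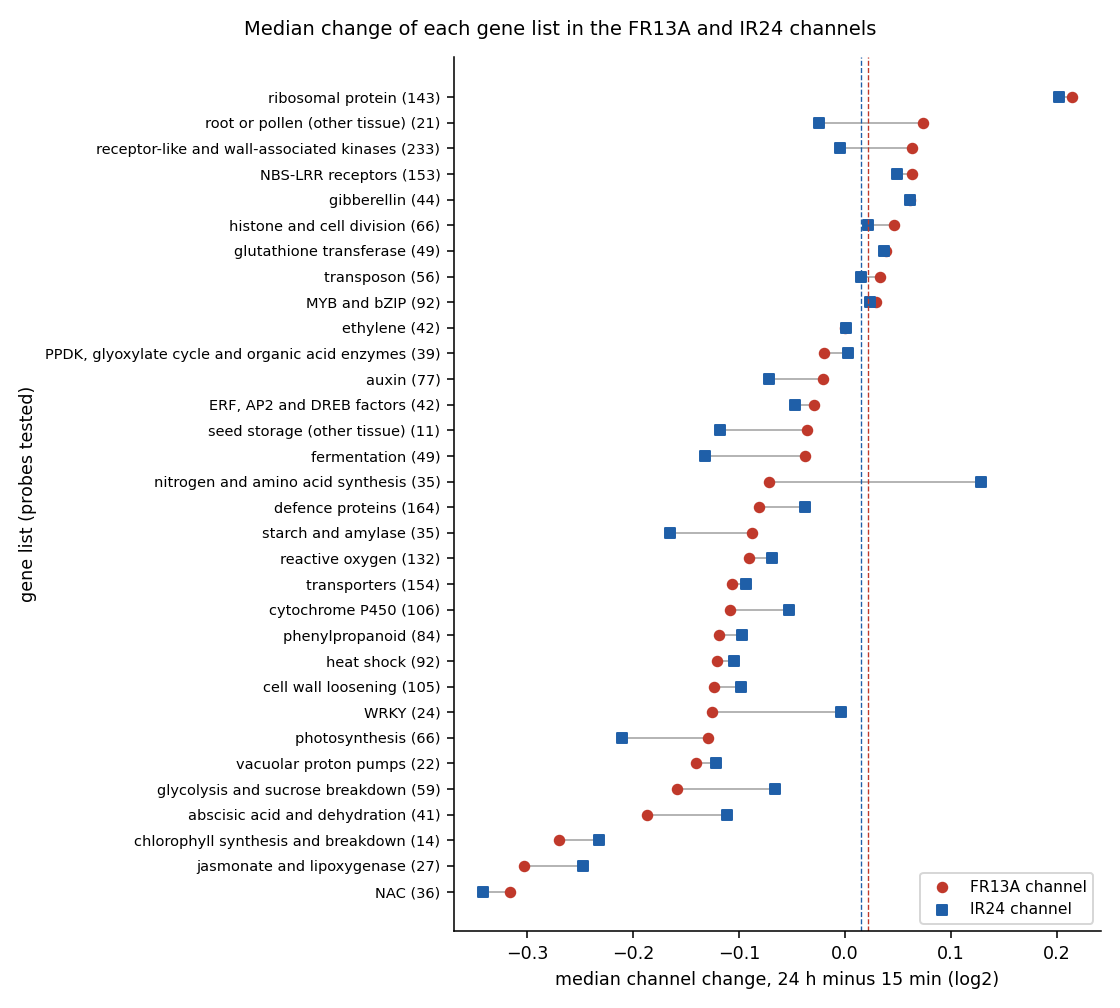
Median channel change, 24 h minus 15 min, log2, of each gene list with 10 or more tested probes, in FR13A (red circles) and IR24 (blue squares), with the medians of all probes as dashed lines. Ribosomal protein genes lie highest and NAC genes lowest in both genotypes, and the widest gap between the genotypes is in nitrogen and amino acid synthesis, at -0.07 in FR13A and 0.13 in IR24.

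Over the 34 gene lists, 3 held a called ratio change: glycolysis and sucrose breakdown, NBS-LRR receptors and transporters, with 1 each. The other 31 had 0 called members and 185 probes at an unadjusted p under 0.05 in the limma fit, counting a probe once per list. Over all tested probes 0.0838% were called and 5.71% had an unadjusted p under 0.05 in that fit. At that share of calls, 0 or 1 called member says little about a list. In the 32 lists of 11 or more probes the median ratio change lay between -0.082 and 0.079. The 165 ribosomal protein probes had a median ratio change of -0.01 beside channel medians of 0.21 in FR13A and 0.20 in IR24.

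Probes described as chloroplast ribosomal RNA, At3g41950 or early proembryo sequence hold 6 of the 72 probes of the wider group towards IR24, and their ratios did not repeat between arrays. AK109648, the largest of them, had ratios of -3.15 and -0.04 at 24 h, against -0.23 and 3.01 at 15 min, and 3.62 and 0.34 in constitutive leaves. The replicates of each time thus differed by more than 3, and the times overlapped. The standard errors of the 6 were 0.65 to 1.66, against a median of 0.17 over all probes, and none passed. Of the 32 probes with these descriptions the other 26 had changes of at most 1.16 in size. Without the 6 probes the wider group holds 120, with 66 towards IR24.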

How the data were processed

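Per the labels' protocols, total leaf RNA was amplified, labelled and hybridised to Agilent rice arrays, which were read with Agilent Feature Extraction 8.1, per the submitters' processing notes. The deposited scanner files hold the spot and background values of each channel as intensity, per the file headers, and a deposited table holds log10 ratios made by the authors, which correlated at 1 in size with the scanner ratios on every array and have FR13A on top. The arrays carry 22575 spots each, 21495 of them gene probes. Control spots were given no weight and marked outlier spots were left missing. Intensities were corrected with normexp (offset 50) and loess in limma 3.58.1 under R 4.3.3, and 20315 probes well above background in a channel on at least 2 arrays were kept. Log2 ratios of all 6 arrays were fitted with 1 mean per time, and the 18907 probes with no missing spot entered limma's separate-channel model after Aquantile scaling. Tests are limma's, two-sided, and p-values were adjusted by Benjamini-Hochberg over all probes tested. A fold for a channel not well above background on both arrays of a time was computed against the lowest level well above background, or the probe's own level where that was higher, and is written "at least". The fits were tested on simulated data.

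Named probes are described called probes, up to 10 more per direction with both same-replicate differences of at least 1, up to 3 per gene list by smallest p, and 7 fixed genes. The probes, lists and rules were chosen with earlier results of these data known. Of probes described as unknown, only the called one with the largest change in each direction is named. Alternatives covered the arrays in the fit, blocks, filters, background, scaling and the deposited table.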

Additional observations from a re-analysis of the deposited data

Results flagged for a closer look

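The genotypes' changes between 15 min and 24 h were tested against each other for every probe, since the change of the ratio is the FR13A change minus the IR24 change. They differed for 15 named probes. Towards FR13A the difference was 3.31 for the phosphoglycerate kinase-like AK070705, 3.19 for the unknown AK110639, 3.16 for the At3g11930-like AK107152 and 1.52 for the At4g23790-like AK107013. Towards IR24 it was -3.52 for PibH8 (AK065693), -3.19 for the anthocyanidin reductase-like AK072654, -2.16 for the blast resistance gene AK067087 and -2.07 for AK060656. It was also -2.07 for AK068675, -2.02 for AK073328, -1.79 for the F-box-like AK068929 and -1.76 for AK065474. It was -1.68 for the amino acid transporter-like AK099094, -1.36 for AK067278 and -1.34 for the unknown AK110646. Both replicates gave each of these its direction, which was a condition for naming the described probes and so is no separate support. With 2 arrays per time, outlying arrays could not be tested for.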

How the results depend on the processing

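The number of called ratio changes (17) depends on the processing: it was 0 with only the 4 submerged arrays, 0 with the scan day as a block, 0 with global median centring (smallest adjusted p = 0.19, with 293 probes at an unadjusted p under 0.05), 9 with both channels well above background on the 4 submerged arrays, 29 with the scanner software's processed signals (15 towards FR13A and 14 towards IR24, 10 of them among the 17), and 0 to 3 when each array was left out in turn. The deposited log ratios gave 23 (14 towards FR13A and 9 towards IR24, 8 of them among the 17). Same-numbered arrays share only a number and a dye orientation, and on the 4 submerged arrays also a scan day. With the replicate block 0 passed (smallest adjusted p = 0.0742, 1464 at an unadjusted p under 0.05). With the replicate block and only the 4 submerged arrays, an alternative chosen after seeing the data, 0 passed (smallest adjusted p = 0.157, 1946 at an unadjusted p under 0.05). Deviations of same-numbered arrays from their time's mean correlated at 0.402 between 24 h and 15 min, 0.06 between 24 h and constitutive and 0.1 between 15 min and constitutive. The 15 named called probes kept their direction whichever array was left out; 12 lost their call without replicate 2 of 15 min and 15 without each other array. The wider group of 126 was 253 with processed signals and 265 with deposited log ratios. FR13A channel calls (2181) were 1387 with the replicate block, 7229 with no scaling between arrays (7003 higher, 226 lower) and 801 to 2200 with each array left out; IR24 channel calls (1917) were 7062 with no scaling (6818 higher, 244 lower) and 667 to 1873. The values that turned sign were the ratio change of AK069330 (-0.0417 without replicate 1 of 15 min, in a range of up to 0.32, and -0.121 within replicate 2), the ratio change of AK065039 (-0.0961 without replicate 2 of 15 min, -0.157 without replicate 1 of 24 h, up to 0.167 without replicate 2 of 24 h and 0.188 with global median centring, and -0.0557 within replicate 2) and the ratio change of AK073964 (0.00297 without replicate 1 of 15 min, down to -0.362). With no scaling between arrays the FR13A change was 0.0207 for AK073328, 0.262 for AK068675 (0.101 with quantile scaling), 0.354 for AK107013, 0.683 for AK110646 and 0.562 for AK067087, and the IR24 change was 0.368 for AK072654. The causes were not tested, except that leaving arrays out leaves fewer degrees of freedom. Signal over background limits the probes given only a bound.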
